A study of Mus musculus with 9 samples.

Results

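Coagulation and fibrinolysis genes were read in mouse liver as 33 named genes, chosen by symbol from a table of 18954 genes. All 33 were found, with a single row each, and 31 had enough counts to be tested. The livers came from 2 groups, both labelled day 42. The 4 controls carried GSDMD-NTki/wt, a single knock-in allele for GSDMD-NT, the pore-forming N-terminal part of gasdermin D. The 5 others, called Alb-cre livers here, carried GSDMD-NTki/wt & Alb-creki/wt, so Cre recombinase from the albumin promoter, which is active in hepatocytes, was added to the same knock-in. The series concerns liver fibrosis after cell death induced with doxycycline, but the labels of these livers name no doxycycline, dose, age, sex or litter. There was no group with the Cre allele alone, and effects of Cre and of GSDMD-NT cannot be told apart. Nothing in the labels says that the livers came from separate animals, and the p-values then measure only the spread between these samples, which may be technical.

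Clotting is a cascade of proteases that ends when thrombin turns fibrinogen into fibrin, and fibrinolysis is the reverse arm, in which plasmin cuts fibrin. Hepatocytes make most of the circulating clotting factors, their inhibitors and plasminogen, and endothelial cells make von Willebrand factor, thrombomodulin and tissue factor pathway inhibitor. Several of the liver-made factors need a vitamin K-dependent carboxylation before secretion to bind calcium and membranes. Some members are also known as acute phase proteins, whose genes respond in hepatocytes to inflammatory cytokines.

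The libraries held 13361093 to 16823506 counts each, of which the 33 members took 1.5 to 1.76%. Levels are CPM with TMM-scaled library sizes, as mean ± SD over 4 controls or 5 Alb-cre livers. Log2 fold changes, Alb-cre minus control, carry the SE of the edgeR quasi-likelihood fit, and adjusted p-values are Benjamini-Hochberg values over 14004 genes, with a call at under 0.05. Some libraries stood apart. Controls 2 and 4 read genes of long exonic length (all exons of a gene merged) lower than genes of short exonic length. The median log2 difference of the longest against the shortest quartile of genes was -0.21 and -0.28 there. It lay between -0.01 and 0.19 in the Alb-cre livers and at -0.08 and 0.02 in controls 1 and 3. Acute phase genes, 20 in the list used, were 4.34 above the control mean on the log2 scale in Alb-cre 2 and 0.21 above it in Alb-cre 3. Alb, a hepatocyte marker, measured 54199 ± 6074 CPM in controls and 43042 ± 5751 CPM in the Alb-cre group (log2 fold change -0.33 ± 0.20, adjusted p = 0.271). Gsdmd measured 38.8 ± 7.17 and 41.0 ± 7.16 CPM (log2 fold change 0.08 ± 0.16, adjusted p = 0.765), and since no source used here says whether the inserted sequence was counted under Gsdmd, this checks no genotype.

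Most coagulation and fibrinolysis genes did not pass the test. Of the 31 tested, 3 were higher in Alb-cre livers (Serpina10, Thbd and Ggcx), 2 were lower (Proc and Klkb1) and 26 were not called. These 5 calls are 16.1% of the tested members, against 18.3% of all tested genes called in either direction, 9.25% called higher and 9.07% called lower. The share is near that of genes at large, so the count is not a result about the family. At an unadjusted p under 0.05 there were 12 members, against 34.9% of all tested genes. The median log2 fold change was 0.05 over the tested members and 0.01 over all tested genes. Without controls 2 and 4, which leaves 2 controls, edgeR called 0 members in either direction (6 at an unadjusted p under 0.05), against 0.5% of all genes tested (0.199% higher and 0.301% lower). The fit with a correction for the exonic length of each gene kept all 5 calls and added Serpinf2. DESeq2 called 4 members higher and 5 lower, adding Serpinf2, F3, F11 and Serpinc1, against 24.2% of all genes (12.4% higher and 11.8% lower).

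**Figure D1:**
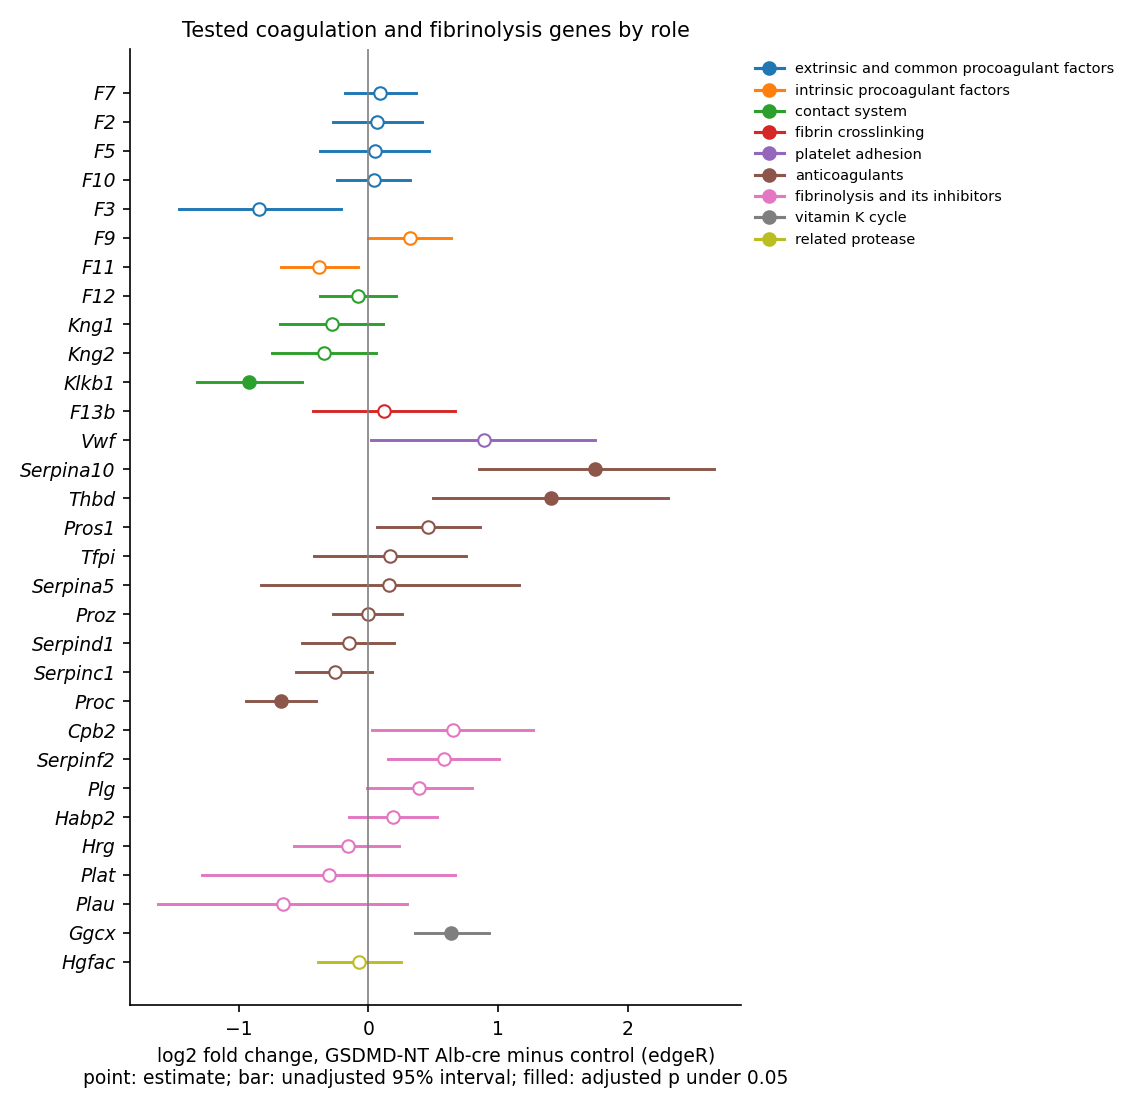
Log2 fold change (Alb-cre minus control) of the 31 tested members, grouped and coloured by role, with unadjusted 95% intervals from edgeR; filled points passed an adjusted p under 0.05. Serpina10 (1.75) and Thbd (1.41) lie farthest right, Klkb1 (-0.92) farthest left, and F7, F2, F5 and F10 lie between 0.04 and 0.09.

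The members spanned a wide range of levels. To compare genes, CPM were divided by the length of the principal transcript (CPM per kilobase, lengths from GENCODE M21). In controls the highest mean levels per kilobase were those of Kng1 (1341), F2 (1087), Plg (717) and Hrg (705), and the lowest was that of F13a1 (0.0232). The ranges over controls of Plg (526 to 892) and Hrg (516 to 835) overlapped, so these neighbours do not differ beyond their spread, whereas every control of Kng1 was above every control of F2. This ranking depends on the transcript length used. Serpinc1, at 2280 CPM in controls beside 2160 CPM for F2, was divided by 4970 bases against 1988, which put it at 459 CPM per kilobase. The genes that endothelial cells are known for stood far below the liver-secreted factors, with Vwf at 0.488 and Thbd at 0.313 CPM per kilobase.

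Tissue factor (F3) starts the extrinsic pathway by binding factor VII (F7), and factor X (F10), with its cofactor factor V (F5), then makes thrombin from prothrombin (F2). None of these 5 genes passed the test, beside 18.3% of all tested genes. F2 measured 2160 ± 260 CPM in controls and 2261 ± 286 CPM in the Alb-cre group (log2 fold change 0.07 ± 0.16, adjusted p = 0.794). For F2, F5, F7 and F10 the 95% interval of the fold change lay inside a 1.5-fold change in either direction. The interval of F10, at 487 ± 26.9 and 501 ± 67.1 CPM, ran from 0.844 to 1.25 fold. F3 was the exception in this arm, with a wider interval. It measured 5.90, 10.1, 8.87 and 12.7 CPM in controls 1 to 4 and 4.01, 3.06, 5.19, 8.47 and 5.45 CPM in Alb-cre 1 to 5. Only control 1 and Alb-cre 4 lay inside the range of the other group. Its log2 fold change of -0.84 ± 0.29 missed the threshold (adjusted p = 0.0603), and it passed without control 1 (adjusted p = 0.0391) or Alb-cre 4 (adjusted p = 0.0216).

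Factor IX (F9) and factor XI (F11) carry the intrinsic pathway, and neither was called. F9 measured 152 ± 24.1 CPM in controls and 190 ± 28.0 CPM in the Alb-cre group (log2 fold change 0.32 ± 0.15, adjusted p = 0.141). F11 measured 69.8 ± 11.8 and 53.7 ± 6.90 CPM (log2 fold change -0.38 ± 0.14, adjusted p = 0.0696). In F11 4 of the 5 Alb-cre livers lay between 49.0 and 52.4 CPM, below every control (60.0 to 86.8), and Alb-cre 4 stood apart at 65.7 CPM. Without Alb-cre 4 the F11 difference passed the test (log2 fold change -0.46, adjusted p = 0.0409), and without any 1 of the other 8 livers it did not. Without control 1, the highest control, the log2 fold change was -0.25 (adjusted p = 0.206).

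The contact system links kallikrein and kinins to clotting, and its plasma kallikrein gene Klkb1 had the largest fall among the members. Klkb1, whose product activates factor XII and frees bradykinin from kininogen, measured 175, 190, 170 and 194 CPM in controls 1 to 4. It measured 92.9, 57.6, 126, 115 and 91.7 CPM in Alb-cre 1 to 5. Every Alb-cre liver lay below every control, and Alb-cre 2 was the lowest. The log2 fold change was -0.92 ± 0.19 (adjusted p = 0.00921), a level 0.53 times that of controls. With 1 liver left out in turn, all 9 fits kept the call (adjusted p = 0.0054 to 0.0299), and it was lost without controls 2 and 4 (log2 fold change -0.84, adjusted p = 0.117). In a bulk tissue, fewer cells of a type and less RNA per cell cannot be told apart. Of 10 hepatocyte marker genes 1 was higher (Tat) and 2 were lower (Ttr and Asgr1), beside 9.25% of all tested genes called higher and 9.07% lower. Their summed level, of which Alb was the largest part, was 78973 to 97508 CPM in controls and 63174 to 77003 CPM in Alb-cre livers. With each gene weighted alike the groups overlapped. The mean log2 difference from the control mean was -0.14 to 0.14 in controls and -0.28 to 0.03 in Alb-cre livers. Their part in the fall of Klkb1, or of Proc below, was not tested. In GENCODE M21, a mouse annotation on GRCm38, 43.2% of the exonic bases of Klkb1 also belong to Gm45753 on the same strand, so the counting could have split or dropped reads there. Gm45753 itself held 1 count in Alb-cre 3 and 0 in each other liver.

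The rest of the contact system was not called. Factor XII (F12) measured 723 ± 84.6 CPM in controls and 685 ± 64.3 CPM in Alb-cre livers, with an interval of 0.775 to 1.16 fold. Kng1 and Kng2 encode kininogens, the carriers of bradykinin, and lie side by side in the genome next to Hrg. Kng1 measured 2395, 2480, 2285 and 2644 CPM in controls and 1929, 2796, 1667, 1581 and 2092 CPM in Alb-cre 1 to 5. Kng2 measured 280, 292, 288 and 296 CPM in controls and 221, 340, 176, 172 and 231 CPM in Alb-cre 1 to 5. In both genes Alb-cre 2 was above every control and the 4 other Alb-cre livers were below every control. The log2 fold changes were -0.28 ± 0.18 for Kng1 (adjusted p = 0.289) and -0.34 ± 0.18 for Kng2 (adjusted p = 0.205). Without Alb-cre 2 Kng2 was called lower (log2 fold change -0.53, adjusted p = 0.0192) and Kng1 had an adjusted p of 0.0564. Reads of these paralogs can be partly shared, since 11.6% of the 75-base windows of the Kng1 principal transcript occur unchanged in that of Kng2, and 1.0% of the 150-base windows do.

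The promoters of Klkb1 and of its neighbour and relative F11, which lie next to each other on chromosome 8, are shown with that of Ggcx, the only other called member with an entry in the RefSeq promoter table used. Each runs from 250 bases before to 50 bases after the start in RefSeq's GRCm38.p6 annotation, 5′ to 3′ on the gene's strand, and capitals mark a match to TTGCNNAA, a core of C/EBP binding sites, on either strand. C/EBP factors are liver transcription factors. Klkb1 lies on the minus strand at chr8:45294786-45295085, F11 on the minus strand at chr8:45261982-45262281 and Ggcx on the plus strand at chr6:72414058-72414357.
Klkb1: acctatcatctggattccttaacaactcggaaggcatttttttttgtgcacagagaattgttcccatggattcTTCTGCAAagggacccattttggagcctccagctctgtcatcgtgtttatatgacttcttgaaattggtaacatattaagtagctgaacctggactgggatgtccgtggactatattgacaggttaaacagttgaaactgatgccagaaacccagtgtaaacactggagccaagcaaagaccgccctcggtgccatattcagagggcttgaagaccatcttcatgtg
F11: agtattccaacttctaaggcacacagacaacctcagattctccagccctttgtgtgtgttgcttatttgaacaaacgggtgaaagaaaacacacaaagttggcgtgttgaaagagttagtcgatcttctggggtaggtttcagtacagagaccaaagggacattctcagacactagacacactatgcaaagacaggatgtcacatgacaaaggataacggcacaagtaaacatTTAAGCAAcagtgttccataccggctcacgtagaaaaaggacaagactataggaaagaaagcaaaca
Ggcx: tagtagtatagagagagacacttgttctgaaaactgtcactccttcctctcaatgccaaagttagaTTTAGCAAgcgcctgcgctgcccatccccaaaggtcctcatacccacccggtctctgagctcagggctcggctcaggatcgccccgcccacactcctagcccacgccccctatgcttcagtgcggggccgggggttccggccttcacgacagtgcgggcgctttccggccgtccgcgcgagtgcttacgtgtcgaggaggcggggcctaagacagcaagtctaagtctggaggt
The match began 177 bases before the start in Klkb1, 17 in F11 and 184 in Ggcx. Of the 25 members with an entry, 10 held such a match (40% of them), among them F9, Serpinc1, Cpb2 and Hrg, against 12.2% of the 27025 genes in the table. A match to GTTAAT, then any base, then ATT, part of the HNF1 site, was held by F13b, Hgfac and Habp2 (12% of members, 0.47% of all genes). A match to TTCNNNGAA, the STAT site, was held by F9, Pros1 and Hgfac (12% of members, 9.55% of all genes), TATAAA by 4 members (16%, against 15.7%), and CAAAGTCCA, an HNF4 site, by 0 (0.555% of all genes). All motifs were searched on both strands, and TTGCNNAA can overlap a STAT match. These matches are descriptions of the letters, and only 2 called members, Klkb1 and Ggcx, had an entry. Cebpa measured 633 ± 88.2 and 535 ± 46.1 CPM (adjusted p = 0.224), and Hnf4a, a main regulator of hepatocyte genes, measured 614 ± 91.2 and 804 ± 115 CPM (adjusted p = 0.0985).

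Fibrin is crosslinked by factor XIII, of which F13b encodes the carrier subunit made in liver and F13a1 the enzyme subunit, known from monocytes and macrophages. F13b measured 151 ± 53.9 CPM in controls and 163 ± 40.4 CPM in the Alb-cre group (log2 fold change 0.12 ± 0.25, adjusted p = 0.777). F13a1 was below the count filter, with 3, 1, 0 and 2 counts in controls and 3, 11, 7, 12 and 4 counts in Alb-cre 1 to 5. All 5 Alb-cre livers were at or above the highest control, at counts too low for the main test. A fit without the filter gave a log2 difference of 2.19 (adjusted p = 0.0611). Of 12 macrophage genes listed, 1 was higher (Timd4) and 0 were lower, beside 9.25% of all tested genes called higher and 9.07% lower. Their summed level was 233 to 408 CPM in controls and 309 to 385 CPM in Alb-cre livers. Their part in the F13a1 counts was not tested.

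Among the 9 anticoagulants, 2 were higher, 1 was lower and 6 were not called, beside 9.25% of all tested genes called higher and 9.07% lower. Proc encodes protein C, the protease that, once activated, cuts factors V and VIII. Proc measured 674, 770, 635 and 785 CPM in controls 1 to 4. It measured 451, 424, 500, 461 and 419 CPM in Alb-cre 1 to 5. The groups were well apart, with the highest Alb-cre liver at 500 CPM and the lowest control at 635 CPM, and the Alb-cre livers were close to each other. The log2 fold change was -0.67 ± 0.12 (adjusted p = 0.00644), a group level 0.63 times that of controls. The call stood in all 9 fits without 1 liver (adjusted p = 0.00713 to 0.026) and was lost without controls 2 and 4 (log2 fold change -0.54, adjusted p = 0.0924).

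**Figure D2:**
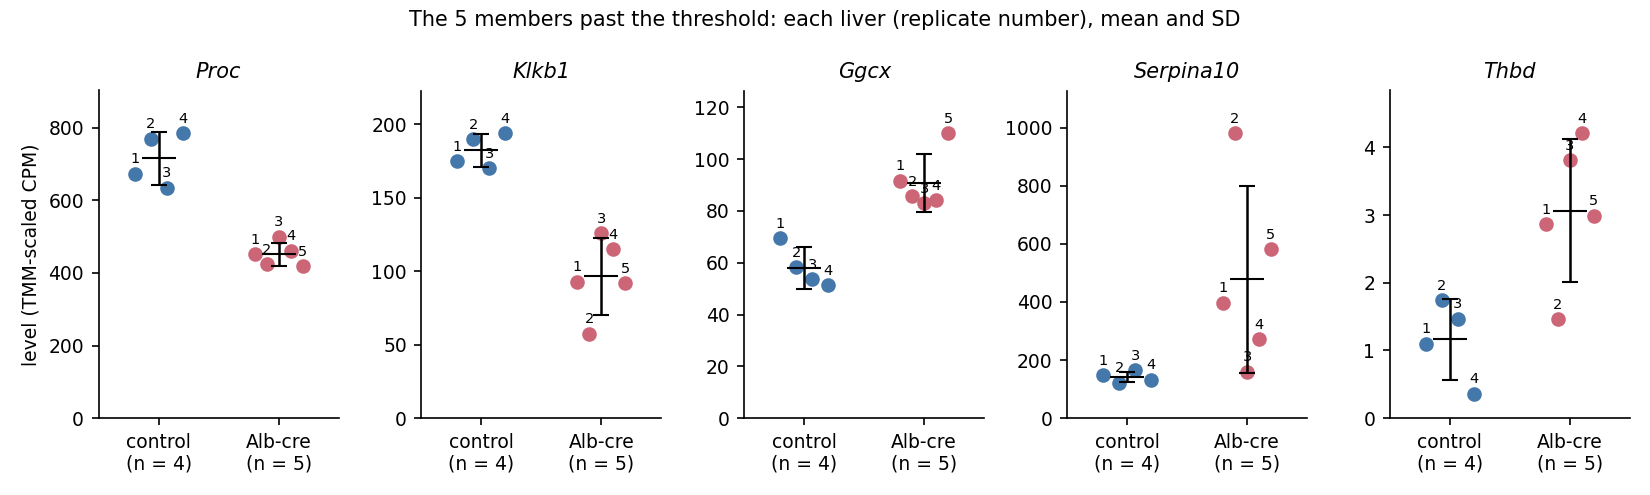
Levels (TMM-scaled CPM, linear axes from 0) of the 5 called members in each liver, with the replicate number beside each point and bars for mean and SD (4 controls, 5 Alb-cre). The groups do not overlap in Proc, Klkb1 and Ggcx, whereas Alb-cre 3 lies among the controls in Serpina10 and Alb-cre 2 in Thbd.

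Of the 7 members that encode vitamin K-dependent proteins (F2, F7, F9, F10, Proc, Pros1 and Proz) Proc was lower and 6 were not called, beside 9.07% of all tested genes called lower, so this count is not a result about the subset. Pros1, the gene of protein S, the cofactor of activated protein C, measured 48.5 ± 8.58 CPM in controls and 66.9 ± 16.6 CPM in the Alb-cre group (log2 fold change 0.46 ± 0.18, adjusted p = 0.0929). Thus protein C and its cofactor had point estimates of opposite sign, with Pros1 short of the threshold. Proz, the gene of protein Z, measured 474 ± 50.8 and 473 ± 31.3 CPM (log2 fold change -0.00 ± 0.12), with an interval of 0.831 to 1.2 fold.

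Serpina10 had the largest fold change of the 31 tested members. It encodes the protein Z-dependent protease inhibitor, a serpin that blocks factor Xa with protein Z as cofactor. It measured 147, 122, 165 and 133 CPM in controls 1 to 4. It measured 398, 981, 160, 272 and 581 CPM in Alb-cre 1 to 5. In 4 Alb-cre livers it was above every control, and in Alb-cre 3 it lay within the controls. The log2 fold change was 1.75 ± 0.42 (adjusted p = 0.0165), a 3.37-fold difference with an interval of 1.80 to 6.32 fold. The call was lost without control 2 (adjusted p = 0.0528) or control 4 (adjusted p = 0.0556), and without both (log2 fold change 1.62, adjusted p = 0.195). It stood in the 7 other fits that left out 1 liver.

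The order of Serpina10 over the Alb-cre livers was that of the acute phase genes. The mean of the acute phase list, relative to controls on the log2 scale, was 0.21 in Alb-cre 3, 1.67 in 4, 2.31 in 1, 3.22 in 5 and 4.34 in 2. The log2 difference of Serpina10 from its control mean was 0.18, 0.95, 1.49, 2.04 and 2.80 in the same livers. In that list 17 of 20 genes were higher and 0 were lower, beside 9.25% of all tested genes called higher and 9.07% lower. Saa1, an acute phase marker, reached 19310 CPM in Alb-cre 2 and 88.7 CPM in Alb-cre 3. The part of the acute phase signal in the Serpina10 values was not tested. Of the 31 tested members 14 had their highest Alb-cre level in Alb-cre 2, Cpb2 and Serpinf2 among them, and 10 had their lowest there.

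**Figure D3:**
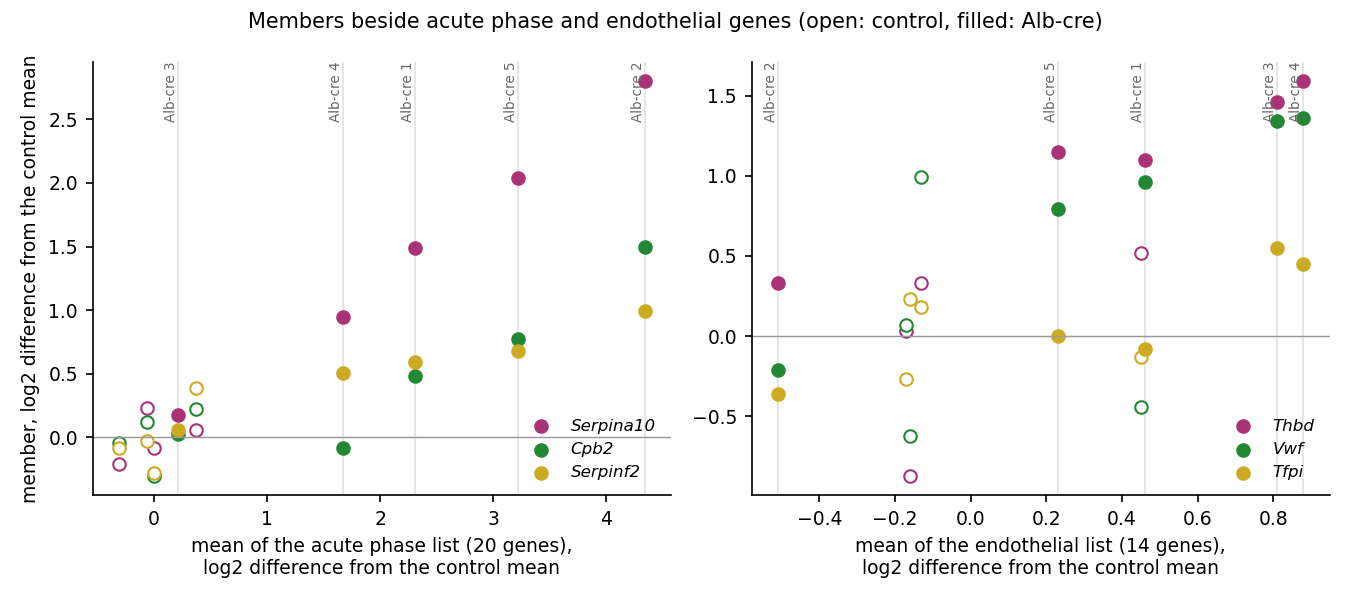
Log2 difference from the control mean of members (y) against the mean difference of a gene list (x), 1 column of points per liver, open for controls and filled for Alb-cre. Left, Serpina10 climbs with the acute phase list from 0.18 in Alb-cre 3 to 2.80 in Alb-cre 2, with Cpb2 and Serpinf2 below it; right, Thbd and Vwf are highest in Alb-cre 3 and 4, where the endothelial list is highest, and lowest among Alb-cre livers in Alb-cre 2.

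The other serpins of the family were not called. Serpinc1 encodes antithrombin, the main inhibitor of thrombin and factor Xa. It measured 2298, 2476, 2177 and 2167 CPM in controls and 1937, 2049, 1893, 1643 and 1968 CPM in Alb-cre 1 to 5. The groups did not overlap, and the difference missed the threshold (log2 fold change -0.26 ± 0.14, adjusted p = 0.19). Non-overlapping groups were seen in 4 tested members (Proc, Klkb1, Ggcx and Serpinc1) and in 18.5% of all tested genes. Serpind1, the gene of heparin cofactor II, measured 401 ± 69.5 and 360 ± 59.2 CPM (adjusted p = 0.534). Serpina5, the protein C inhibitor gene, which in mouse is known mainly from the reproductive tract, held 3 to 20 counts per liver and had an interval of 0.561 to 2.24 fold, too wide to read.

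Thbd and Tfpi encode endothelial anticoagulants, thrombomodulin, which turns thrombin into an activator of protein C, and tissue factor pathway inhibitor. Thbd was low throughout, with 18, 27, 20 and 6 counts in controls 1 to 4 and 45, 22, 66, 74 and 45 counts in Alb-cre 1 to 5. In CPM these were 1.10, 1.74, 1.47 and 0.359 in controls and 2.87, 1.46, 3.81, 4.21 and 2.99 in Alb-cre livers. In 4 Alb-cre livers Thbd was above every control, and Alb-cre 2 lay within them. The log2 fold change was 1.41 ± 0.42 (adjusted p = 0.0366), a 2.65-fold difference with an interval of 1.42 to 4.95 fold. The call was fragile. It stood without control 2 or Alb-cre 2 and was lost without any 1 of the other 7 livers (adjusted p = 0.0504 to 0.0792) and without controls 2 and 4 (log2 fold change 1.27, adjusted p = 0.158). Tfpi, at 2.56 ± 0.507 and 2.86 ± 0.880 CPM, was not called (adjusted p = 0.696).

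Von Willebrand factor (Vwf), which tethers platelets and carries factor VIII, followed a like order. It measured 4.08, 2.71, 8.13 and 2.33 CPM in controls and 7.96, 3.26, 10.6, 10.7 and 7.04 CPM in Alb-cre 1 to 5. Alb-cre 3 and 4 were above every control, Alb-cre 1 and 5 were above all controls but control 3, and Alb-cre 2 was below controls 1 and 3. The log2 fold change was 0.89 ± 0.40 (adjusted p = 0.135), and Vwf was called higher without control 3 (log2 fold change 1.38, adjusted p = 0.0314) or Alb-cre 2 (log2 fold change 1.09, adjusted p = 0.0473). Of 14 endothelial genes listed 2 were higher (Cdh5 and Lyve1) and 0 were lower, beside 9.25% of all tested genes called higher and 9.07% lower. Their summed level was 229, 360, 232 and 247 CPM in controls 1 to 4 and 331, 183, 410, 406 and 270 CPM in Alb-cre 1 to 5. Among Alb-cre livers Alb-cre 2 was the lowest and Alb-cre 3 and 4 the highest there too. Among controls the sum and Thbd were highest in control 2, but Vwf was highest in control 3. None of the 14 was at 0 in any liver. The part of endothelial RNA in the Thbd and Vwf values was not tested. Of 10 platelet genes listed 7 were found and 5 tested, with 1 higher (Itgb3) and 1 lower (Itga2b), beside 18.3% of all tested genes called. Their sums were 11.2 to 14.5 CPM in controls and 6.98 to 15.2 CPM in Alb-cre livers.

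Plasminogen (Plg) is cut to plasmin by the activators Plat and Plau, and plasmin is held back by antiplasmin (Serpinf2). Carboxypeptidase B2 (Cpb2) trims fibrin so that it binds less plasminogen. None of the 7 genes of fibrinolysis was called, beside 18.3% of all tested genes. Serpinf2 came closest, with 1005, 725, 754 and 634 CPM in controls and 1156, 1531, 802, 1094 and 1229 CPM in Alb-cre 1 to 5. All Alb-cre livers but Alb-cre 3 were above every control. Its log2 fold change was 0.58 ± 0.20 (adjusted p = 0.0606), and it passed without control 1 (adjusted p = 0.039), without Alb-cre 3 (adjusted p = 0.0226) and in the length-corrected fit (adjusted p = 0.0433).

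Cpb2 measured 372, 313, 347 and 261 CPM in controls and 448, 909, 328, 302 and 546 CPM in Alb-cre 1 to 5 (log2 fold change 0.65 ± 0.29, adjusted p = 0.129). Alb-cre 1, 2 and 5 were above every control and Alb-cre 3 and 4 within them. Without Alb-cre 2 the log2 fold change of Cpb2 was 0.33 (adjusted p = 0.243). Plg measured 1976 ± 428 and 2598 ± 366 CPM (log2 fold change 0.39 ± 0.18, adjusted p = 0.151). In GENCODE M21 exons of Plg and of the transporter gene Slc22a3 overlap on opposite strands, and Slc22a3, at 49 to 77 counts in controls and 77 to 171 in Alb-cre livers, is small beside the 24257 to 44718 counts of Plg. Plat and Plau were near the limit of detection, at 6 to 25 and 4 to 24 counts per liver, with intervals of 0.412 to 1.59 and 0.325 to 1.23 fold. Hrg, the gene of histidine-rich glycoprotein, which binds plasminogen and heparin, measured 1223 ± 259 and 1092 ± 200 CPM (adjusted p = 0.566). Habp2, a protease that can activate factor VII and urokinase, measured 195 ± 36.6 and 222 ± 32.5 CPM (adjusted p = 0.417). Hgfac, the related activator of hepatocyte growth factor, measured 288 ± 59.4 and 275 ± 19.3 CPM (adjusted p = 0.773). The intervals of Hrg, Habp2 and Hgfac lay inside a 1.5-fold change.

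**Figure D4:**
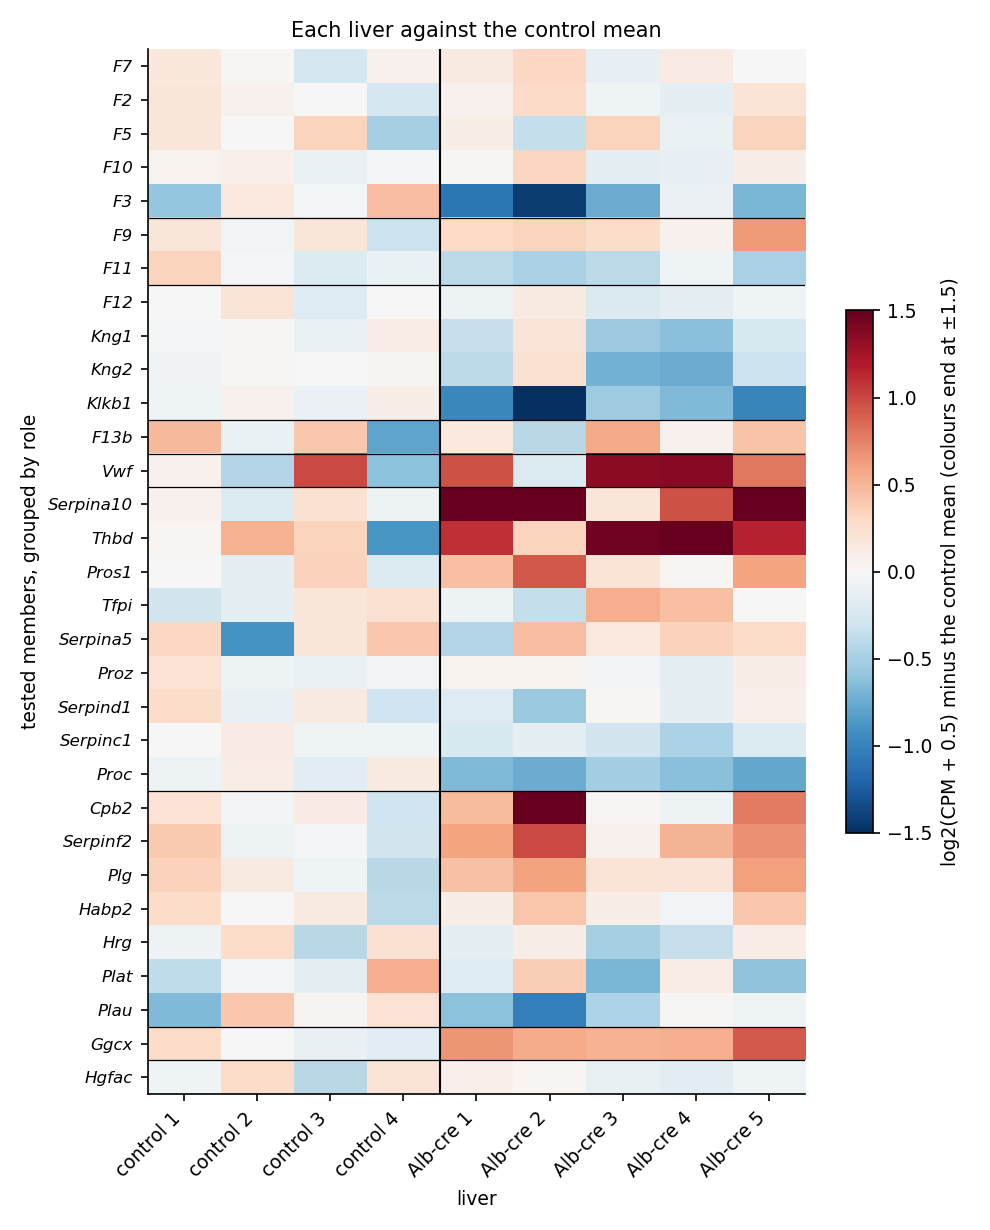
Log2(CPM + 0.5) of the 31 tested members in each liver minus the mean of the 4 controls, grouped by role, with colours ending at ±1.5. Proc and Klkb1 are blue and Ggcx red in all 5 Alb-cre livers, while Cpb2 and Serpina10 are deep red in Alb-cre 2 and near 0 in Alb-cre 3. Serpina10 passes the end of the colour scale in both Alb-cre 2 (2.80) and Alb-cre 5 (2.04).

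The carboxylase gene Ggcx rose in every Alb-cre liver. Its enzyme adds the carboxyl groups that vitamin K-dependent clotting factors need. Ggcx measured 69.5, 58.2, 53.6 and 51.3 CPM in controls 1 to 4. It measured 91.7, 85.7, 83.0, 84.2 and 110 CPM in Alb-cre 1 to 5. The lowest Alb-cre liver was above the highest control. In the rising order of the acute phase list (Alb-cre 3, 4, 1, 5 and 2) Ggcx measured 83.0, 84.2, 91.7, 110 and 85.7 CPM. The part of the acute phase signal in the Ggcx values was not tested. The log2 fold change was 0.64 ± 0.13 (adjusted p = 0.00881), a 1.56-fold difference with an interval of 1.29 to 1.90 fold. The call stood in all 9 fits without 1 liver (adjusted p = 0.00804 to 0.0297) and was lost without controls 2 and 4 (log2 fold change 0.56, adjusted p = 0.114).

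Vkorc1, whose enzyme recycles vitamin K and is the target of warfarin, was listed at only 5 to 11 counts per liver and was below the filter. It held 9, 11, 5 and 6 counts in controls and 9, 8, 11, 10 and 8 counts in Alb-cre 1 to 5, and the groups overlapped. In GENCODE M21 47.7% of its exonic bases also belong to Gm21974 on the same strand, so these counts may not give its level. Its paralog Vkorc1l1 measured 36 to 54 CPM in controls and 55.1 to 64.3 CPM in the Alb-cre group (log2 fold change 0.37 ± 0.13, adjusted p = 0.0591).

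The uncalled members were not all measured equally well. Of the 26, 11 had a 95% interval inside a 1.5-fold change (42.3%, against 38.6% of all uncalled genes). At a control mean of at least 20 CPM it was 11 of 20 uncalled members, against 66.2% of such genes. Such a count depends on the estimate as well as on the width of the interval, so it does not measure precision alone. The 11 members were F2, F5, F7, F10, F12, Proz, Serpinc1, Serpind1, Hrg, Hgfac and Habp2. A further 8 stayed inside 2-fold, and the intervals of F3, Serpinf2, Serpina5, Plat, Plau, Cpb2 and Vwf reached past 2-fold. For those 7 a change of that size could have been missed.

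**Figure D5:**
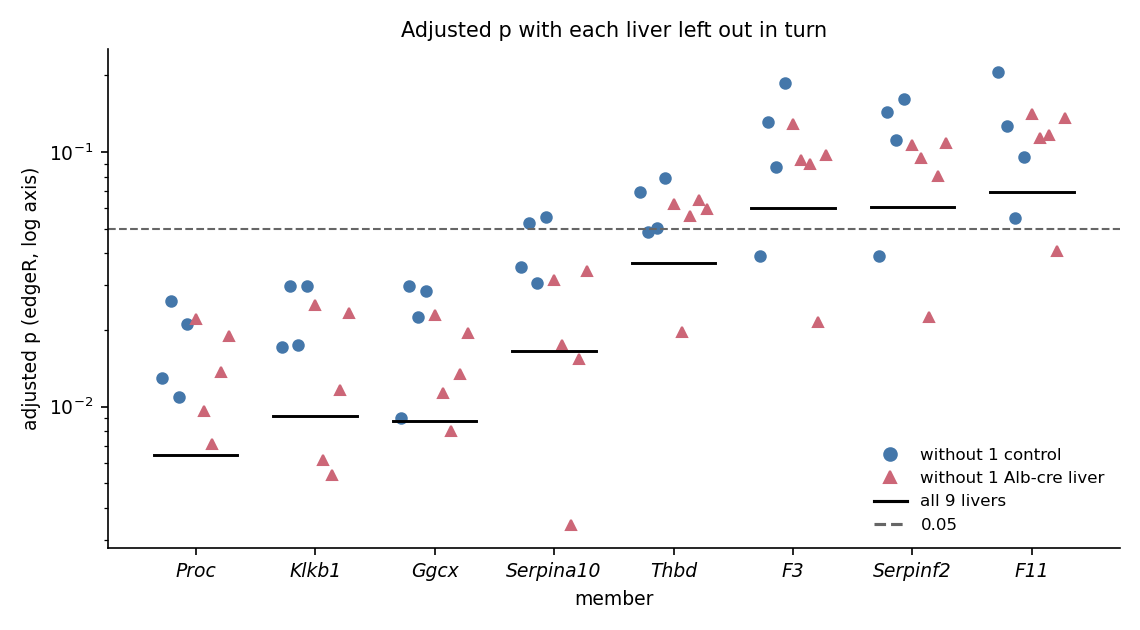
Adjusted p (edgeR, log axis) of the 5 called members and of F3, Serpinf2 and F11 with each liver left out in turn, circles for controls and triangles for Alb-cre livers, with a black line for all 9 livers and a dashed line at 0.05. All points of Proc, Klkb1 and Ggcx lie below 0.05, whereas 7 of 9 lie above it for Thbd and 2 of 9 for Serpina10.

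Other haemostasis genes were read from a list of 33, of which 30 were found and 25 tested. Of the 25 tested, 6 were higher and 1 was lower (28%, against 18.3% of all tested genes, 9.25% higher and 9.07% lower). Mcfd2 and Lman1 encode the cargo receptor that carries factors V and VIII out of the endoplasmic reticulum, and both were higher with groups that did not overlap. Mcfd2 measured 243, 223, 243 and 173 CPM in controls and 337, 440, 289, 346 and 347 CPM in the Alb-cre group (log2 fold change 0.67 ± 0.15, adjusted p = 0.0136), a call that stood in all 9 fits without 1 liver. Lman1 measured 274, 226, 240 and 192 CPM and 353, 306, 349, 293 and 327 CPM (log2 fold change 0.48 ± 0.13, adjusted p = 0.0266), and its call was lost without control 2 or 4 or Alb-cre 1 or 5 (adjusted p up to 0.0754). Neither of their cargo genes was called. F5 is given above, and F8, known from liver endothelium, measured 2.77 ± 0.831 and 5.55 ± 2.34 CPM (log2 fold change 1.01 ± 0.36, adjusted p = 0.0682).

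The fibrinogen chain genes Fga (log2 fold change 1.51 ± 0.41, adjusted p = 0.0272) and Fgb (1.24 ± 0.38, adjusted p = 0.0414) were higher and Fgg was not called (1.19 ± 0.39, adjusted p = 0.0519). Like Serpina10 they were highest in Alb-cre 2, with Fga at 26457 CPM there and 4969 CPM in Alb-cre 3. C4bp, whose protein binds protein S in humans (log2 fold change 0.61 ± 0.19, adjusted p = 0.0454), and Gas6, a vitamin K-dependent relative of protein S (1.60 ± 0.51, adjusted p = 0.049), were higher too. The calls of Fga, Fgb, C4bp and Gas6 were lost without 5, 7, 7 and 8 of the 9 livers when each was left out in turn. The lower gene was Nqo1, a quinone reductase, at 6.01 ± 0.756 and 3.36 ± 0.759 CPM (log2 fold change -0.83 ± 0.20, adjusted p = 0.0176), and its call stood in all 9 such fits. A2m, a broad protease inhibitor gene, was below the filter and held 935 counts in Alb-cre 2 against 0 to 24 in each of the other livers.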

How the data were processed

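RNA was read in 9 mouse livers by strand-specific, paired-end sequencing after ribosomal RNA depletion, per the labels' protocols. Per the submitters' processing notes, the tools included fastp 0.23.2 and HISAT2 2.1.0 and the build was GRCm39. On read counting, its strand setting and its annotation, nothing is given in the sources used here. The authors deposited raw counts, whole numbers for each gene and liver beside the gene symbols, and each column name matched one sample's description.

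Totals were 13361093 to 16823506 counts per liver. Libraries of the same group differed by more than counting noise (chi-square of at least 15.3 per gene). In R 4.3.3, edgeR 4.0.16 tested the 14004 genes that passed filterByExpr (4950 did not), with TMM factors of 0.894 to 1.095, glmQLFit and glmQLFTest by group. Standard errors and 95% intervals came from the fold change and the F statistic. The fit was tested on simulated data. CPM use TMM-scaled totals, and differences per liver use log2(CPM + 0.5). Transcript lengths, exonic lengths and exon overlaps came from GENCODE M21 and promoters from RefSeq, both on GRCm38. They were matched by symbol or identifier, so only the promoters carry coordinates.

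The members and lists were chosen with earlier results of these data known. All members were named whatever their result. From the other lists (hepatocyte, endothelial, macrophage, monocyte and neutrophil, platelet, stellate, cholangiocyte, mesothelial, acute phase, liver factors, other haemostasis) up to 3 called genes a direction were named, and every called haemostasis gene. F8, Fgg, A2m, Vkorc1l1, Slc22a3, Gm45753, Cebpa and Hnf4a were chosen after their values were seen. Gm21974 was named for its exon overlap with Vkorc1, and no values of it are given. Alternatives were other scalings, DESeq2 1.42.0, limma-voom (limma 3.58.1), other filters, replicate blocks, livers left out, removal of abundant genes and a length offset (lowess, span 0.3; 13836 genes had a length). One gene of the haemostasis list is not reported here.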

Additional observations from a re-analysis of the deposited data

Results flagged for a closer look

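In 38 genes with 2 groups each (76 groups), 2 groups held a liver far from the others by Dixon's ratio, where chance gives about 1 in 20. These 2 of 76 groups are not more than that rate, so neither flag stands out from chance. F11 in Alb-cre 4 was at 65.7 CPM, against 49.0 to 52.4 CPM in the 4 other Alb-cre livers (gap 0.769 of the range). Gas6 in control 1 was at 27.8 CPM, against 40.5 to 42.0 CPM in the 3 other controls (gap 0.913 of the range).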

How the results depend on the processing

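The 5 member calls kept their direction in all alternatives, and the same 5 were called under RLE, upper-quartile and total scaling, limma-voom, both other filters and without mitochondrial and abundant genes. Members called higher ranged from 1 to 4 and lower from 2 to 4 when 1 liver was left out (1 higher without control 4, 4 lower without Alb-cre 4). Other haemostasis genes then ranged from 1 to 8 higher and 1 to 2 lower, and all genes from 567 to 1339 higher and 625 to 1184 lower. Without controls 2 and 4, members were 0 higher and 0 lower, other haemostasis genes 0 and 0, and all genes 29 and 44, with 2 controls left. DESeq2 called 4 members higher and 5 lower (F3, F11 and Serpinc1 besides Proc and Klkb1), and 10 other haemostasis genes higher and 2 lower; the cause was not tested. Replicate numbers did not pair the livers. Deviations of livers with the same title number correlated at -0.01 to 0.15 across genes, with 3 of 8 livers correlating best with their own number, and those with the same description number at -0.13 to 0.06, with 1 of 6. A replicate block on the title number (8 livers) gave 1 member higher (main 3) and 3 lower (main 2). In that edgeR fit Serpina10 (adjusted p = 0.076) and Thbd (0.108) were not called, and F3 was called lower (0.0452). It gave 2 other haemostasis genes higher (main 6) and 817 genes lower (main 1270). A replicate block on the description number (6 livers) gave 2 members higher and 1 lower (main 2; Ggcx at adjusted p = 0.0746 and Proc at 0.113 were not called), 1 other haemostasis gene higher and 0 lower, and 270 genes higher and 229 lower; fewer livers entered both fits. Low counts limit F13a1, Vkorc1, Plat, Plau, Serpina5 and Thbd, at under 10 to 74 counts per liver. Those of Vkorc1 may not give its level, given its shared exons, so its limit need not be depth.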

Other observations

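The remaining lists are set beside 18.3% of all tested genes called. Of 15 liver transcription factor genes 3 were higher, Prox1 (78.0 ± 16.1 to 140 ± 34.2 CPM, adjusted p = 0.0152 by edgeR), Foxa3 (58.3 ± 4.59 to 96.9 ± 30.3 CPM, adjusted p = 0.0267) and Ppara (66.8 ± 15.9 to 115 ± 34.5 CPM, adjusted p = 0.0398), and 1 was lower, Nr2f2 (44.0 ± 6.58 to 30.3 ± 7.53 CPM, adjusted p = 0.0482). Of the 12 stellate, 6 cholangiocyte and 5 monocyte and neutrophil genes tested, 0 were called by edgeR. Of 4 mesothelial genes tested, Msln was higher (0.148 ± 0.100 to 1.14 ± 0.817 CPM, adjusted p = 0.0305 by edgeR). Msln was near the limit of detection, at 0 to 0.22 CPM in controls and 0.0664 to 2.22 CPM in Alb-cre livers. The groups overlapped, and the interval of 2.2 to 25.9 fold was wide.

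Alb-cre 2 held the highest level of the 5 Alb-cre livers in 14 of the 31 tested members (45.2%, against 25.6% of all tested genes), among them F2, F10, Kng1, Serpinf2 and Serpina10, and the lowest in 10 (32.3%, against 27.8%), among them F5, F11, Klkb1, Thbd and Vwf. Alb-cre 3 was highest in 4 (12.9%, against 23.8%) and lowest in 8 (25.8%, against 20.9%). Alb-cre 2 also differed most from the others of its group over all genes, with a chi-square per gene of 103 to 275, and its part in these counts was not tested. The SD of log2 levels was larger in Alb-cre livers than in controls in 13 of 31 members (41.9%, against 49.2% of all tested genes). It was 1.00 against 0.19 for Serpina10 and 0.40 against 0.04 for Kng2, while Proc had 0.10 against 0.15.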
